A study of Homo sapiens with 8 samples.

Results

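The 10 genes described here are parts of the WNT signalling pathway: the ligands WNT5A and WNT7B, the secreted inhibitors DKK1 and SFRP1, the receptor-removing ubiquitin ligases RNF43 and ZNRF3, the feedback inhibitors AXIN2 and NKD1, and the transcription factors LEF1 and TCF7. They were chosen by name, with earlier results of these data known. Each was found by its symbol among the 58828 genes of the count tables of both cell lines. RNA was sequenced from 22RV1 and DU145, 2 established human prostate cancer cell lines, to ask what the cancer/testis antigen PAGE4 alters in cells under oxidative stress. Each line carried either an empty lentiviral vector or a doxycycline-inducible, HA-tagged PAGE4 reading frame, and doxycycline was given to vector and PAGE4 cells alike. The cells were the survivors of puromycin selection, and no picking of clones is described. They were exposed for 12 h to PBS or to hydrogen peroxide (H2O2), for which the labels give 200 mM, a dose that could not be checked here and that differs from those stated for other assays of the study. Every one of the 8 conditions is represented by 1 library. Library values below are listed in 1 fixed order: vector with PBS, vector with H2O2, PAGE4 with PBS, PAGE4 with H2O2.

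WNT proteins are secreted, lipid-modified ligands that bind Frizzled receptors together with the co-receptors LRP5 and LRP6. In the canonical branch, this keeps beta-catenin from being destroyed, and beta-catenin then acts with TCF/LEF factors at target genes. DKK1 blocks LRP5 and LRP6, SFRP1 binds WNT ligands outside the cell, and RNF43 and ZNRF3 mark Frizzled receptors for removal. AXIN2, NKD1, RNF43, ZNRF3 and LEF1 are themselves well known targets of the pathway. WNT5A is known mainly for beta-catenin-independent signalling, which in prostate cancer has been tied to invasion.

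The total count per library ranged from 25482984 to 43310401. PAGE4 had 0 or 1 read in the 4 vector libraries and 1001 to 1489 reads in the 4 PAGE4 libraries. In counts-per-million units (CPM), HMOX1, a gene that answers oxidative stress, went from 3.49 to 153 with H2O2 in 22RV1 vector cells and from 79.0 to 114 CPM in DU145 vector cells. The mesenchymal marker VIM was at 10.5 to 23.3 CPM in the 22RV1 libraries and at 376 to 474 CPM in the DU145 libraries, and AXL was also higher in DU145. Of the same list, CD44 overlapped between the lines, with 92.7 to 236 CPM in 22RV1 and 74.6 to 162 CPM in DU145. CDH2 went the other way, at 1.88 to 4.20 CPM in 22RV1 and at or near 0 in DU145. The basal keratin KRT5 was near 0 in both lines, and the 3 immune and 2 endothelial markers summed to under 1 CPM in each of the 8 libraries. Since these are bulk samples, fewer cells that express a gene and less RNA of it per cell cannot be told apart. With 1 library per condition, tests use the 4 matched pairs of libraries, and pairs of 1 line share its cultures. A p-value sets a change against the spread between pairs, which may be technical. Each gene has few pairs, so edgeR draws this spread in large part from all genes tested. A small p-value therefore does not measure the spread of that gene alone. Intervals cover counting error only.

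Promoter sequence is shown for DKK1 and RNF43, because these were the genes whose response to H2O2 differed between the lines with the smallest p-values. RefSeq start sites were matched for 5 of the 10 genes (WNT5A, LEF1, TCF7, RNF43 and DKK1), with 8 windows of 250 bases before the start. The windows are on GRCh38.p14, are written 5′ to 3′ on the strand of the gene, and end at the base before the start site. DKK1 on chromosome 10 is shown at chr10:52314031-52314280 on the plus strand. RNF43 on chromosome 17 is shown at chr17:58402722-58402971 on the minus strand, before the second of its 2 RefSeq starts, which lies in an intron of the longer transcripts. This window was chosen because it holds a motif match, while the window before the first RNF43 start held none and overlaps annotated exon sequence. Capitals mark the TCF/LEF motif in DKK1 and the AP-1 motif in RNF43.
DKK1: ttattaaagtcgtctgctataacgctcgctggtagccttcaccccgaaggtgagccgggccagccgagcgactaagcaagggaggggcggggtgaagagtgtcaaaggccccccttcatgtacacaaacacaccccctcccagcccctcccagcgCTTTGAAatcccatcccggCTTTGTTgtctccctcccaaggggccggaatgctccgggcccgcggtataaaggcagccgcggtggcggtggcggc
RNF43: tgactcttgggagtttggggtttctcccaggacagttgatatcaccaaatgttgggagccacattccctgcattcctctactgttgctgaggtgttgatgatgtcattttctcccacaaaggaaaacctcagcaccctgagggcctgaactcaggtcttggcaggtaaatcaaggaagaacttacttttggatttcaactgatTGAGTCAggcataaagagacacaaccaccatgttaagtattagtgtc
The TCF/LEF motif was searched on both strands with the letters CTTTGAA and its variants CTTTGAT and CTTTGTA and CTTTGTT, and AP-1 with TGAGTCA. The DKK1 window held CTTTGAA 95 to 89 bases and CTTTGTT 76 to 70 bases before the start, and the RNF43 window held TGAGTCA 47 to 41 bases before the start. A TCF/LEF match also lay 50 to 44 bases before the second start of TCF7, and the other 5 windows held neither motif. Among 35116 promoter windows of the same length, 12.0% held at least 1 TCF/LEF match, 1.21% held 2 or more, and 4.20% held the AP-1 match. A match describes the letters in the window and not a bound site.

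WNT7B, DKK1, SFRP1, NKD1 and TCF7 were higher in every DU145 library than in any 22RV1 library, and RNF43 and LEF1 were higher in every 22RV1 library than in any DU145 library. SFRP1 and NKD1 were at or near the counting floor in 22RV1. WNT5A, AXIN2 and ZNRF3 overlapped between the lines in CPM.

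**Figure D1:**
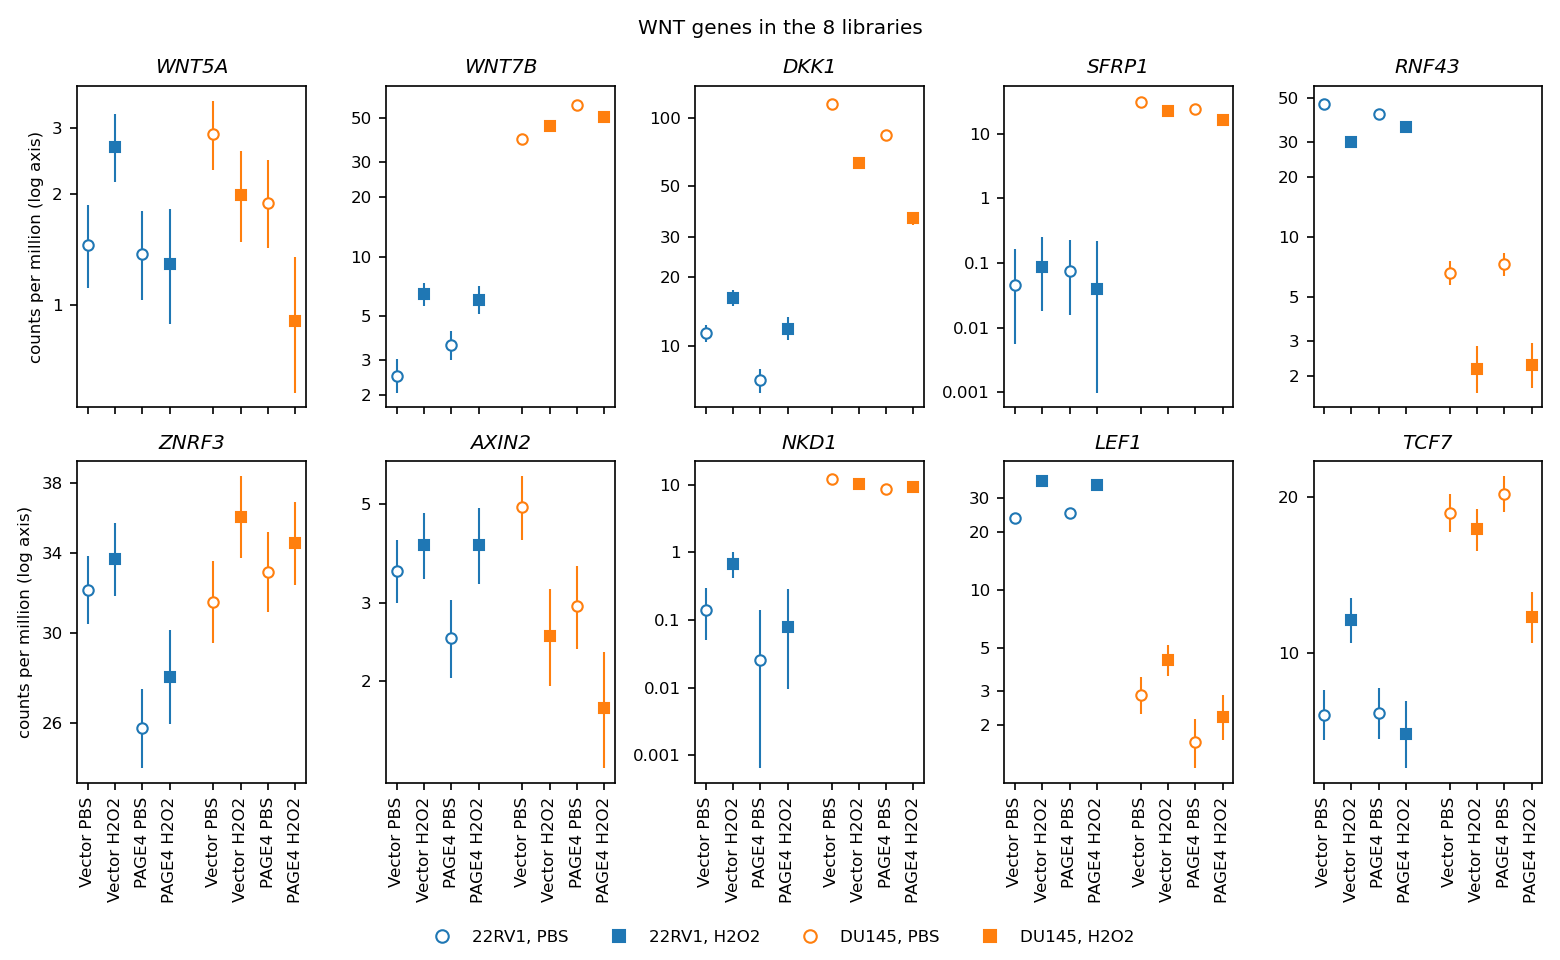
CPM of the 10 genes in the 8 libraries on log axes that differ between panels, with 22RV1 in blue and DU145 in orange, open circles for PBS and filled squares for H2O2. Bars are exact Poisson intervals of the single count at the 95% level, and the widest belong to SFRP1 and NKD1 in 22RV1, which rest on 1 to 23 reads.

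Among the ligands, WNT7B (chromosome 22, 45920366 to 45977162 in GENCODE release 44) had 2.52, 6.49, 3.60 and 6.08 CPM in 22RV1 and 39.1, 45.6, 58.4 and 50.9 CPM in DU145. All DU145 libraries lay above all 22RV1 libraries, and the pooled level was 11.0-fold higher in DU145 (counting interval 10.1 to 12.0). WNT5A (chromosome 3, 55465715 to 55490539) was a weak gene in both lines, with 63, 92, 54 and 33 reads in 22RV1 and 87, 52, 56 and 24 reads in DU145. That is 1.29 to 2.68 CPM in 22RV1 and 0.909 to 2.89 CPM in DU145, so the lines overlapped. The smallest WNT5A count, 24 reads, has an interval of 0.583 to 1.35 CPM.

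Of the secreted inhibitors, DKK1 (chromosome 10, 52314281 to 52318042) was at 11.3, 16.2, 7.04 and 11.9 CPM in 22RV1 and at 115, 63.1, 84.2 and 36.2 CPM in DU145. The lowest DU145 library was thus above the highest 22RV1 library. SFRP1 (chromosome 8, 41261962 to 41309473) had 2, 3, 3 and 1 reads in 22RV1, at or under a floor of 3 reads in every library, against 916, 591, 723 and 422 reads in DU145. Pooled over the 4 libraries of a line, 9 reads against 2652 gave a level 374-fold higher in DU145, with a counting interval of 197 to 819. No comparison of conditions was detectable for SFRP1 within 22RV1 at this depth.

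The ligases and feedback inhibitors split between the lines. RNF43 (chromosome 17, 58353676 to 58417595) was at 46.7, 30.2, 41.6 and 36.1 CPM in 22RV1 and at 6.61, 2.18, 7.30 and 2.27 CPM in DU145. Its relative ZNRF3 (chromosome 22, 28883572 to 29057488) was nearly level, from 25.8 to 33.7 CPM in 22RV1 and from 31.5 to 36.0 CPM in DU145. The ZNRF3 ranges overlapped in CPM, but not after trimmed mean of M-values (TMM) scaling, with 24.7 to 31.7 in 22RV1 and 34.3 to 38.1 in DU145. AXIN2 (chromosome 17, 65528563 to 65561648), the scaffold of the destruction complex that is induced by WNT signals, had 3.53, 4.04, 2.50 and 4.04 CPM in 22RV1 and 4.92, 2.53, 2.94 and 1.74 CPM in DU145. NKD1 (chromosome 16, 50548396 to 50649249), which acts on Dishevelled, had 6, 23, 1 and 2 reads in 22RV1 and 369, 274, 254 and 244 reads in DU145. The NKD1 level pooled over a line was 45.3-fold higher in DU145 (counting interval 31.9 to 66.5).

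The transcription factors stood in opposite order in the 2 lines. LEF1 (chromosome 4, 108047545 to 108168956) was at 23.5, 36.7, 25.0 and 35.0 CPM in 22RV1 and at 2.86, 4.33, 1.62 and 2.20 CPM in DU145. TCF7 (chromosome 5, 134114681 to 134151865) was at 7.60, 11.6, 7.65 and 6.99 CPM in 22RV1 and at 18.6, 17.3, 20.3 and 11.7 CPM in DU145. For TCF7 the groups were close, since its lowest DU145 library was just above its highest 22RV1 library.

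In CPM per kilobase of exon, RNF43, LEF1, DKK1 and ZNRF3 led in 22RV1, with medians of 6.14, 5.60, 5.22 and 4.30, and each overlapped its neighbour over the 4 libraries. WNT7B, TCF7 and AXIN2 followed at 0.953, 0.755 and 0.729 and overlapped each other, then WNT5A at 0.198, while SFRP1 and NKD1 were last and overlapped. In DU145 the order was DKK1 with a median of 33.2, WNT7B with 9.49 and SFRP1 with 4.97 CPM per kilobase, with no overlap between these 3. ZNRF3 overlapped SFRP1, TCF7 stood alone at 1.78, and RNF43, NKD1, AXIN2, LEF1 and WNT5A each overlapped the next. The union of exons of TCF7 is 10093 bp against 3288 bp for its canonical transcript. With canonical transcripts, TCF7 moved above WNT7B in 22RV1, at 2.32 against 1.23, and above SFRP1 in DU145, at 5.46 against 5.27.

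In the fit over 4 pairs matched for construct and treatment, 6 of the 8 genes that were measurable in both lines differed between them, 2 higher in 22RV1 and 4 lower, where 56.4% of the 24637 genes tested did (30.1% higher in 22RV1 and 26.3% lower). SFRP1 was kept by the filter on low counts through DU145 alone, where it is high. NKD1 was kept through DU145 and, in 22RV1, through the vector library with H2O2 only (23 reads). Their difference is a description and is not counted. LEF1 was higher in 22RV1 by 3.31 (SE 0.23, adjusted p 4.63e-06) and RNF43 by 3.05 (SE 0.25, adjusted p 1.44e-05) on the log2 scale. DU145 was higher for WNT7B (log2 difference -3.65, SE 0.23), DKK1 (-2.82, SE 0.32), TCF7 (-1.20, SE 0.18) and ZNRF3 (-0.37, SE 0.13), with adjusted p of 0.0312 for ZNRF3 and of at most 0.000558 for the others. These are values of edgeR's quasi-likelihood test with Benjamini-Hochberg adjustment, as are all adjusted p below unless another test is named. The ZNRF3 call was lost without any 1 of 3 of the 4 pairs, with adjusted p of 0.0743 to 0.120. WNT5A (-0.34, SE 0.34, adjusted p 0.414) and AXIN2 (0.09, SE 0.32, adjusted p 0.834) did not pass. Of the same 8 genes, 5 did not overlap in CPM between the lines, 2 above in 22RV1 and 3 above in DU145, against 56.0% of 20136 genes (those with a mean count of 10 or more), of which 35.6% lay above in 22RV1 and 20.4% in DU145, as shares of all 20136. The 2 lines are 1 culture series each, so the line and any other difference between these cultures cannot be told apart.

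The wider pathway was taken from a list of 97 WNT genes that includes the 10, of which 86 passed the filter on low counts. In it, 28 genes were higher in 22RV1 and 33 in DU145, beside the 30.1% and 26.3% of all genes tested. The 33 include SFRP1 and NKD1. SFRP1 and others with almost no reads in 1 line passed the filter through the other line alone. NKD1 rests on few reads in 22RV1, so these counts are a description. In the line where it was lower, each gene named next but FZD2 had 0 to 6 reads. Higher in 22RV1 was the secreted inhibitor WIF1 (173, 206, 188 and 258 reads against 0 to 2 in DU145). So were the R-spondin RSPO4, the ligand WNT2, the target ASCL2 (36, 25, 21 and 6 reads against 0) and the growth factor FGF9. In 22RV1, FGF9 had 5 and 7 reads in vector cells and 140 and 68 in PAGE4 cells, so its line difference came mainly from PAGE4 cells. Higher in DU145 was RSPO3, a secreted enhancer of WNT signalling that acts by way of RNF43 and ZNRF3, with 2089, 984, 2005 and 955 reads against 0 to 2 in 22RV1. The receptor ROR2, which binds WNT5A, the receptors LGR6 and FZD2, and DKK3 were also higher in DU145.

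The response to H2O2 was not the same in 22RV1 and DU145. DKK1 rose in 22RV1 and fell in DU145, RNF43 fell in both but by more in DU145, and WNT7B rose in 22RV1 while its value in DU145 was near 0, and for all 3 the difference between the lines itself passed the test. AXIN2 fell in DU145, with a value above 0 in 22RV1. LEF1 had values above 0 in all 4 pairs, and ZNRF3 had values within 0.17 of 0 on the log2 scale in all 4.

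Over all 4 pairs, 2 of the 8 genes measurable in both lines passed the test, against 18.0% of all genes tested (7.78% higher and 10.3% lower). RNF43 fell by 1.05 on the log2 scale (SE 0.24, adjusted p 0.0184) and LEF1 rose by 0.45 (SE 0.13, adjusted p 0.0496). The median log2 change was -0.24 over these 8 genes, 0.08 over the 86 tested genes of the list and -0.03 over all genes tested. LEF1 no longer passed without any 1 pair (adjusted p 0.0924 to 0.177), and RNF43 did not pass without the DU145 vector pair (log2 change -0.88, adjusted p 0.0582). The remaining 8 of the 10 had adjusted p from 0.104 for SFRP1 to 0.95 for ZNRF3.

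The response differed between 22RV1 and DU145 for 4 of the 8 genes measurable in both lines, each with a higher value in 22RV1, where 15.3% of all genes differed with 8.22% higher and 7.04% lower in 22RV1. Since the 10 genes were chosen with results of these data known, the counts describe them and are not a test of the list. Values within each line come from the same fit and were added after the data were seen. In 22RV1, 3 of the 8 rose and 1 fell (all genes: 25.5% called, 11.6% rose and 13.9% fell), and in DU145 none of the 8 rose and 4 fell (all genes: 33.6% called, 15.3% rose and 18.3% fell). The median log2 change of the 8 was 0.31 in 22RV1 and -0.67 in DU145, beside medians over all genes of 0.00 and -0.02.

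**Figure D2:**
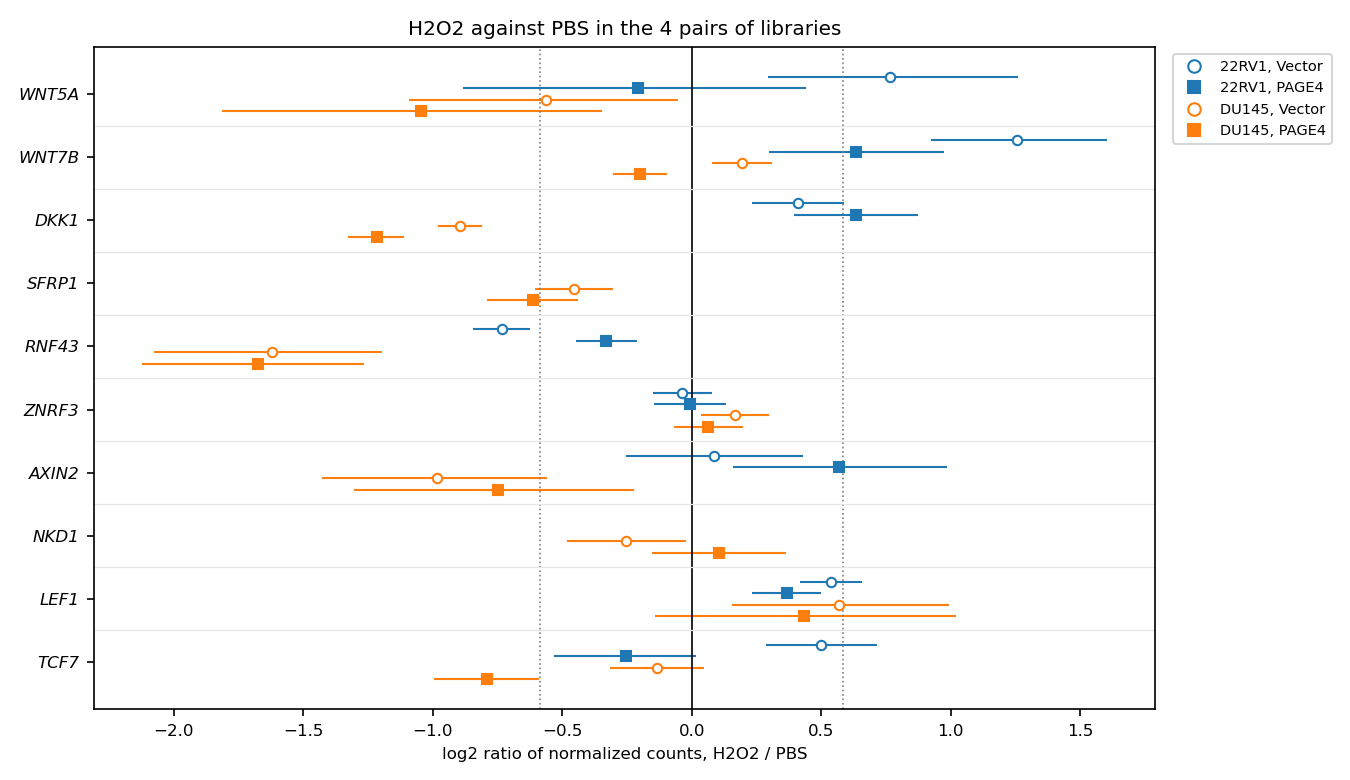
Log2 ratio of normalized counts, H2O2 over PBS, for each gene in the 4 pairs, with 95% exact intervals from the 2 counts. Dotted lines mark a 1.5-fold difference, pairs with a mean under 10 normalized counts are not drawn (SFRP1 and NKD1 in 22RV1), and DKK1 lies right of 0 in both 22RV1 pairs and left of 0 in both DU145 pairs.

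DKK1 counts show the split directly. In 22RV1 it had 490 reads with PBS and 557 with H2O2 in vector cells, and 276 and 303 in PAGE4 cells, from libraries that were smaller with H2O2. Normalized, these are log2 ratios of 0.41 (interval 0.23 to 0.59) and 0.63 (0.39 to 0.87). In DU145, the reads went from 3467 to 1648 in vector cells and from 2490 to 956 in PAGE4 cells, log2 ratios of -0.90 (-0.98 to -0.81) and -1.22 (-1.33 to -1.11). The 22RV1 and DU145 intervals do not overlap. DKK1 rose by 0.50 in 22RV1 (SE 0.13, adjusted p 0.00474) and fell by 1.11 in DU145 (SE 0.11, adjusted p 2.89e-08), and the lines differed by 1.60 (SE 0.17, adjusted p 2.80e-07). That difference stayed past the threshold in all 9 alternative settings run. The rise in 22RV1 did not pass without the PAGE4 pair of that line (0.37, adjusted p 0.0605).

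RNF43 was lower with H2O2 in every pair. In DU145 it went from 199 to 57 reads in vector cells and from 216 to 60 in PAGE4 cells, and in 22RV1 from 2022 to 1039 and from 1632 to 919. The log2 ratios were -1.62 and -1.68 in DU145 but -0.73 and -0.33 in 22RV1. RNF43 fell by 1.71 in DU145 (SE 0.19, adjusted p 1.39e-07) and by 0.55 in 22RV1 (SE 0.14, adjusted p 0.00359), and the lines differed by 1.16 (SE 0.24, adjusted p 0.00116). Without the 22RV1 vector pair, the 22RV1 value was -0.35 and did not pass (adjusted p 0.214). ZNRF3, the second ligase of this kind, had 1390, 1158, 1012 and 713 reads in 22RV1 and 948, 941, 977 and 912 in DU145. Its log2 ratios with H2O2 were -0.04, -0.01, 0.17 and 0.06, and neither line passed (adjusted p 0.868 in 22RV1 and 0.753 in DU145). The interval of each of the 4 ratios stayed under 1.5-fold in both directions. GENCODE release 44 has a further protein-coding model over the whole of RNF43 on the same strand, and reads split between the models cannot be told apart here.

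The ligand WNT7B had 109, 223, 141 and 155 reads in 22RV1 and 1177, 1191, 1727 and 1342 reads in DU145. With H2O2 its log2 ratios were 1.25 and 0.63 in the 22RV1 pairs against 0.19 and -0.20 in the DU145 pairs. WNT7B rose by 0.93 in 22RV1 (SE 0.18, adjusted p 0.000265), while the DU145 value was -0.06 (SE 0.13, adjusted p 0.813). The difference of 0.99 (SE 0.22, adjusted p 0.00276) was lost without the 22RV1 vector pair (adjusted p 0.0585) or the DU145 PAGE4 pair (adjusted p 0.0818). For WNT5A, the other ligand, the 4 ratios were 0.77, -0.21, -0.56 and -1.04 with wide intervals. Neither line passed, at 0.31 in 22RV1 (adjusted p 0.599) and -0.84 in DU145 (adjusted p 0.0829), and the line difference of 1.14 did not pass either (SE 0.51, adjusted p 0.147).

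AXIN2, often read as an index of canonical WNT activity, had 153, 139, 98 and 103 reads in 22RV1 and 148, 66, 87 and 46 reads in DU145. The 2 DU145 ratios were -0.98 and -0.75, and those of 22RV1 were 0.09 and 0.57. AXIN2 fell by 0.93 in DU145 (SE 0.28, adjusted p 0.0122), with 0.30 in 22RV1 (SE 0.27, adjusted p 0.463). The lines differed by 1.23 (SE 0.39, adjusted p 0.0317), but this call did not hold in DESeq2's Wald test (adjusted p 0.169) or without the 22RV1 PAGE4 pair (0.164), the DU145 PAGE4 pair (0.0753) or the DU145 vector pair (0.201). The DU145 fall was also lost in the Wald test (adjusted p 0.0973) and without either DU145 pair (0.0582 and 0.209). A further protein-coding model overlaps AXIN2 on the same strand.

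In 22RV1, NKD1 passed the filter only through the vector library with H2O2, where it is highest. Its 22RV1 values rest on very few reads, and it is in none of these counts. The counts of 6 and 23 in 22RV1 vector cells and of 1 and 2 in PAGE4 cells gave log2 ratios of 2.06 (interval 0.83 to 3.75) and 1.13 (-2.76 to 7.38). The fit put NKD1 higher by 2.00 in 22RV1 (SE 0.57, adjusted p 0.0110) and the lines apart by 2.13 (SE 0.61, adjusted p 0.0185). Both calls came from the vector pair, since without it the 22RV1 value had an adjusted p of 0.699 and the line difference one of 0.659. The line difference was also lost without the DU145 vector pair (1.95, adjusted p 0.0776). In DU145, NKD1 was at -0.13 (SE 0.21, adjusted p 0.719).

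SFRP1 was measurable in DU145 only, where H2O2 went with 591 against 916 reads in vector cells and 422 against 723 in PAGE4 cells. The ratios were -0.45 and -0.61, and SFRP1 fell by 0.58 in DU145 (SE 0.16, adjusted p 0.00529). With 1 of the 2 DU145 pairs left out it no longer passed (adjusted p 0.0999 and 0.205). The fitted difference between lines carries no information on SFRP1, given 1 to 3 reads in each 22RV1 library.

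The transcription factors differed from each other in their response. LEF1 ratios were 0.54 and 0.37 in 22RV1 and 0.57 and 0.43 in DU145, from 1018, 1262, 979 and 893 reads in 22RV1 and 86, 113, 48 and 58 in DU145. LEF1 rose by 0.44 in 22RV1 (SE 0.14, adjusted p 0.0237) and was at 0.46 in DU145 (SE 0.21, adjusted p 0.0911), with a line difference of -0.03 (SE 0.25, adjusted p 0.999). The 22RV1 call was lost in DESeq2's Wald test (adjusted p 0.109) and without either 22RV1 pair (0.0574 and 0.309). TCF7 ratios were 0.50 and -0.25 in 22RV1 and -0.13 and -0.79 in DU145, so within each line the 2 constructs were apart. TCF7 fell by 0.51 in DU145 (SE 0.19, adjusted p 0.0358), a call that rested on the PAGE4 pair and was lost without it (-0.18, adjusted p 0.721) and in DESeq2's Wald test (adjusted p 0.141). Its line difference of 0.64 did not pass (SE 0.27, adjusted p 0.119), though it did without the 22RV1 PAGE4 pair (0.92, adjusted p 0.00370) or the DU145 vector pair (0.97, adjusted p 0.0431). The 3′ end of TCF7 overlaps SKP1 on the opposite strand, which had 3391 to 7683 reads, and the strand setting of the counting is not given in the sources used here.

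**Figure D3:**
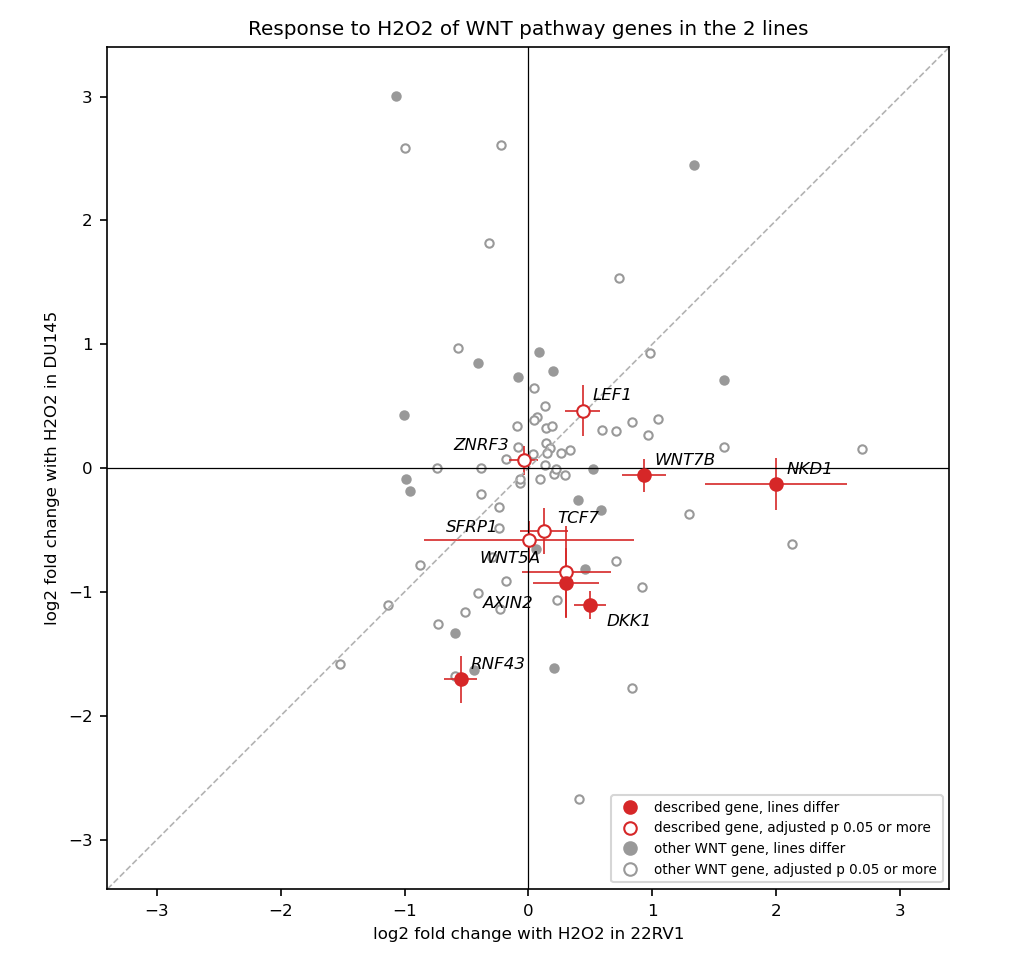
Log2 fold change with H2O2 in 22RV1 (x axis) and DU145 (y axis) for the 86 tested WNT genes, with the 10 described genes in red with standard errors and the others in grey. Filled points differ between the lines at adjusted p under 0.05, the dashed line marks equal change, and SOST lies outside the axes. The filled red points, DKK1, RNF43, WNT7B, AXIN2 and the very weak NKD1, lie to the lower right of the dashed line.

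In single pairs, a fold over 1.5 on size factors within a line, with a mean of at least 10 normalized counts, was used as a measure of size without a test. With H2O2, 3 of 8 genes were past it in 22RV1 vector cells (all genes 37.8%, with 17.9% higher and 19.8% lower) and 2 of 8 in 22RV1 PAGE4 cells (30.8%, with 15.0% higher and 15.8% lower). In DU145 it was 3 of 10 in vector cells (40.7%, with 19.2% higher and 21.5% lower) and 6 of 10 in PAGE4 cells (41.6%, with 19.5% higher and 22.1% lower). Each of the 9 values in DU145 was lower with H2O2. In 22RV1, 4 of 5 were higher, and the exception was RNF43. The count was thus near or below the share of all genes in 3 of the 4 pairs.

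Among the other 76 tested genes of the list, 7 rose and 10 fell with H2O2 over the 4 pairs, which is near the 7.78% and 10.3% of all genes tested. The 7 include SOST, which passed the filter on low counts only through an H2O2 library and is the inhibitor counted as rising below. By role, 1 of 14 ligands rose and 1 fell, none of 15 receptors rose and 5 fell, 1 of 11 secreted or surface inhibitors rose and 2 fell, 1 of 17 relay and destruction complex genes rose and none fell, and 3 of 11 transcription factors and cofactors rose and 1 fell, members of the 10 included. Of the smaller groups, 2 of 9 targets rose, and 1 of 5 R-spondins and their receptors and 1 of 2 receptor-removing ligases fell, while neither of 2 ligand secretion genes passed. LRP5, the co-receptor that DKK1 blocks, had 3240, 1916, 2825 and 1610 reads in 22RV1 and 7038, 2216, 6967 and 1956 in DU145, and fell by 1.04 (SE 0.23, adjusted p 0.0167). LRP5 fell in both lines, by 0.44 in 22RV1 and by 1.63 in DU145, and these differed (1.19, SE 0.13, adjusted p 3.98e-07). KREMEN2, which works with DKK1 on LRP6, fell by 1.12 (adjusted p 0.00146) and the Frizzled receptor FZD2 by 1.57 (adjusted p 0.00619). CTNNBIP1, which binds beta-catenin and keeps it from TCF factors, fell by 0.98 (adjusted p 0.00906), and the ligand WNT8B by 1.06 (adjusted p 0.0412).

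On the rising side were the AP-1 subunit JUN, by 1.89 (SE 0.25, adjusted p 0.00244), the TCF corepressor TLE1, by 1.10 (SE 0.20, adjusted p 0.00739), the adhesion receptor CD44, by 0.96 (SE 0.08, adjusted p 0.000531), and the ligand WNT9A, by 0.73 (SE 0.20, adjusted p 0.0341). JUN rose by more in DU145, at 2.45 against 1.33 in 22RV1 (difference -1.11, SE 0.19, adjusted p 0.000166). SOST, an LRP5/LRP6 inhibitor, had 0 reads in all 4 PBS libraries and 21, 2, 7 and 5 reads with H2O2. It passed the filter on low counts only through the 22RV1 vector library with H2O2, where it is highest. Its fitted value of 6.15 depends on those few reads and is a description, not a test. The difference of the H2O2 response between lines was past the threshold for 9 of the 76 in each direction, where 8.22% of all genes were higher and 7.04% lower in 22RV1.

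In the test of PAGE4 against vector cells over 4 pairs, 1 of the 8 genes measurable in both lines passed. DKK1 had fewer normalized counts with PAGE4 than with the vector in both lines and under both treatments, and it fell by 0.59 on the log2 scale (SE 0.09, adjusted p 0.0143). Across all genes, 54 passed this test, which is 0.219% of those tested (0.126% higher and 0.0934% lower). Of the 8, 6 had values under 0 and WNT7B and RNF43 had values above 0, with a median of -0.29 beside 0.00 over all genes.

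**Figure D4:**
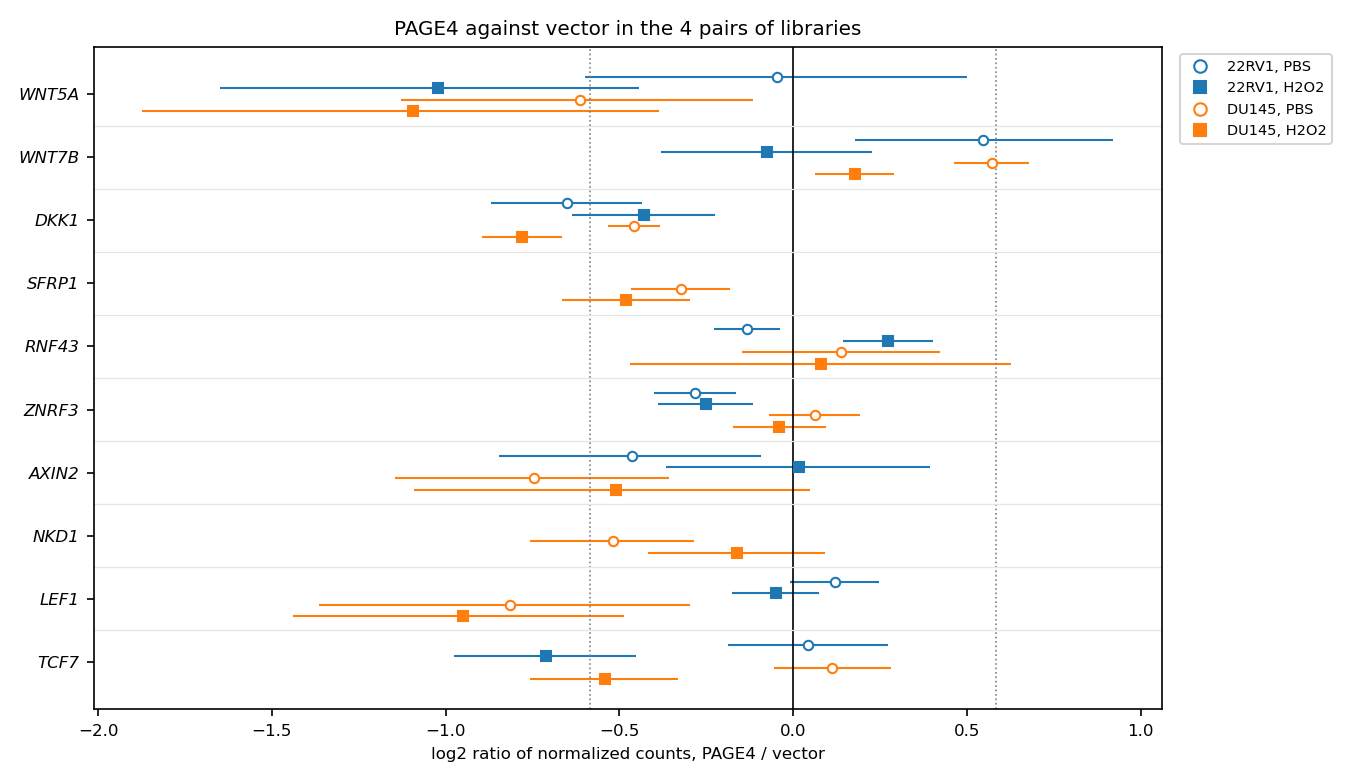
Log2 ratio of normalized counts, PAGE4 over vector cells, for each gene in the 4 pairs, with 95% exact intervals from the 2 counts and dotted lines at 1.5-fold. Pairs with a mean under 10 normalized counts are not drawn, and DKK1 lies left of 0 in all 4 pairs, between -0.78 and -0.43.

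For DKK1, the PAGE4 and vector libraries had 276 against 490 reads with PBS and 303 against 557 with H2O2 in 22RV1. In DU145 they had 2490 against 3467 and 956 against 1648. The 4 log2 ratios were -0.65 (interval -0.87 to -0.44), -0.43 (-0.64 to -0.23), -0.46 (-0.53 to -0.38) and -0.78 (-0.90 to -0.66), so no interval reached 0. Without the 22RV1 PBS pair the value was -0.56 and just missed the threshold (adjusted p 0.0532). In an additive fit without pair blocks it was -0.55 with an adjusted p of 1.00. The values of the lines did not differ by the test (0.08, SE 0.17, adjusted p 0.947). PAGE4 and vector cells of a line are 1 culture pair, and PAGE4 and other differences between these cultures cannot be told apart.

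WNT5A was below its vector value in each of the 4 pairs, with log2 ratios of -0.05, -1.02, -0.61 and -1.09. The counts behind these are 54 against 63, 33 against 92, 56 against 87 and 24 against 52 reads, and the first interval spans 0 (-0.60 to 0.50) while the other 3 do not. In the fit, WNT5A was at -0.69 (SE 0.26, p 0.0219) and did not pass after adjustment (adjusted p 0.549). Being lower in all 4 pairs was seen in 7.32% of 16595 genes (mean normalized count 10 or more in both lines), and being higher in all 4 in 9.32%. DKK1 and WNT5A were the 2 genes of the 10 that were lower in all 4 pairs, with SFRP1 and NKD1 too weak in 22RV1 to be counted.

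WNT7B was the gene with the largest value on the higher side, at 0.30 (SE 0.12, p 0.0238, adjusted p 0.555). Its 4 ratios were 0.55, -0.08, 0.57 and 0.18. The PBS pairs were alike in both lines, at 141 against 109 reads in 22RV1 and 1727 against 1177 in DU145, while the H2O2 pair of 22RV1 had 155 against 223 reads from libraries of unequal size. SFRP1 (-0.39, adjusted p 0.625), NKD1 (-0.64, adjusted p 0.652) and AXIN2 (-0.43, adjusted p 0.693) were lower without passing.

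LEF1 had the smallest p of the 10 genes for a difference of the PAGE4 value between the lines. In DU145, PAGE4 cells had 48 against 86 reads with PBS and 58 against 113 with H2O2, log2 ratios of -0.82 (interval -1.36 to -0.30) and -0.95 (-1.44 to -0.49). In 22RV1 the ratios were 0.12 (-0.01 to 0.25) and -0.05 (-0.18 to 0.07) from 893 to 1262 reads. The line difference of 0.93 (SE 0.25) missed the threshold with an adjusted p of 0.0541. It passed with DESeq2 size factors (adjusted p 0.0441), with no filter on low counts (0.0472) and without the 22RV1 H2O2 pair (0.0468). None of the 10 genes passed this test as run, where 2.09% of all genes did (0.986% higher in 22RV1 and 1.10% lower), and NKD1 had a value of -2.42 (SE 0.72, adjusted p 0.0863) from the same few 22RV1 reads. TCF7 was lower in PAGE4 cells with H2O2 in both lines (-0.71 and -0.54) and near 0 with PBS (0.04 and 0.11).

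Whether PAGE4 altered the response to H2O2 was tested as an interaction. No gene of the 24637 passed in edgeR, 68 had an unadjusted p under 0.05, and DESeq2's Wald test called 1. This fit had no term for the H2O2 response differing between the lines, a difference that passed its own test for 15.3% of genes. That difference went into the spread, so the test cannot settle whether PAGE4 altered the response. None of the 10 genes had an unadjusted p under 0.05. The values were -0.06 (SE 0.65) for DKK1, -0.73 (SE 0.72) for WNT5A, -0.70 (SE 0.40) for TCF7, and 0.20 (SE 0.52) for RNF43.

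In single pairs, 1 of 8 genes was past 1.5-fold with PAGE4 in 22RV1 with PBS (all genes 20.1%, with 8.55% higher and 11.5% lower) and 2 of 8 with H2O2 (23.5%, with 11.3% higher and 12.2% lower). In DU145 it was 3 of 10 with PBS (15.6%, with 7.75% higher and 7.88% lower) and 3 of 10 with H2O2 (15.5%, with 7.28% higher and 8.22% lower). All 9 values were lower in PAGE4 cells: DKK1 in 2 pairs, WNT5A in 3, LEF1 in 2, AXIN2 in 1 and TCF7 in 1. The PAGE4 and H2O2 comparisons share libraries. Among the 76 other tested genes of the list, FGF9 was the only one called over 4 pairs, with a fitted value of 3.89 (SE 0.64). FGF9 had 5, 7, 140 and 68 reads in 22RV1 and 1, 1, 0 and 6 reads in DU145, so nearly all its reads came from 22RV1 PAGE4 cells. It passed the filter on low counts through those cells alone, where it is high, so its value is a description and not a test.

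DKK1 and RNF43 had the widest ranges over the libraries once the mean of each line was removed, at 1.65 and 1.54 in log2(CPM + 0.5). By the mean absolute difference of these centred values over the 8 libraries, the genes most like DKK1 were ERAP2 (0.113), ADCY5 (0.129) and UST (0.130). Those most like RNF43 were ALDH3B1 (0.0298), C1QL3 (0.0493) and PSMG3-AS1 (0.0530). Annotated antisense genes of the 10 were weak, with 0 to 3 reads for WNT5A-AS1, 0 to 6 for LEF1-AS1 and 8 to 49 for PRKG1-AS1, which overlaps the first bases of DKK1 on the opposite strand.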

How the data were processed

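Total RNA was sequenced from 8 libraries, 1 for each combination of cell line (22RV1 or DU145), construct and treatment. The deposited values are raw read counts per gene, in 1 table per line, which the authors did not normalize. The submitters' processing notes name GRCh38, HISAT2 2.1.0 and featureCounts 1.6.0, and the annotation release and strand setting are not given in the sources used here. CPM is the count over the total of the library, and counts per kilobase use the union of exons in GENCODE release 44. Counts were fitted in edgeR 4.0.16 (R 4.3.3) with TMM, filterByExpr and the quasi-likelihood test, with matched pairs as blocks, over 24637 genes at an adjusted p of 0.05. Every one of the 10 genes passed the filter, SFRP1 through DU145 alone and NKD1 through DU145 and the 22RV1 vector library with H2O2. Pair ratios used DESeq2 1.42.0 size factors within a line, a pseudocount of 0.5 and exact 95% intervals of 2 counts, after the fold of 1.5 in the study's methods. In simulated counts with 200 genes changed 4-fold, the fits recovered 111 to 191 of them, with 3 to 11 false calls. The fewest, 111, were recovered for the difference of the H2O2 response between lines. The simulated spread was 1 set value for all genes and was not taken from these cultures. The simulations for H2O2 over 4 pairs and for the PAGE4 interaction held no H2O2 response that differed between the lines. In the data 15.3% of genes passed the test of that difference, so recovery in those 2 fits does not carry over.

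Named genes are the 10, plus up to 5 of the 97-gene list in each direction with the largest significant fold in the H2O2, PAGE4 and line comparisons, and the 3 genes most like DKK1 and RNF43. LGR4, LGR5, MYC and CCND1 in the closing observations were picked with their values already known. Counts leave out SFRP1 and NKD1 where they need a level in 22RV1, except counts over the 97-gene list and those said to include them. Genes and lists were chosen with earlier results of these data known. The alternatives were other normalizations, filters and fold limits, DESeq2's Wald test, no blocks, and each pair left out. The values within each line and the canonical transcript lengths were added after the data were seen. A high or low library total bears on weak genes, for which the floor was 3 reads.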

Additional observations from a re-analysis of the deposited data

Results flagged for a closer look

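A test of the difference itself put the response to H2O2 apart between 22RV1 and DU145 for DKK1, RNF43, WNT7B and AXIN2, 4 of the 8 genes measurable in both lines (15.3% of all genes), and for NKD1, which is near the floor in 22RV1. On the log2 scale, 22RV1 minus DU145, the difference was 1.60 for DKK1, 2.13 for NKD1, 1.16 for RNF43, 1.23 for AXIN2 and 0.99 for WNT7B. For DKK1 the lines moved in opposite directions and both changes passed, and for RNF43 both lines fell. The NKD1 value rests on 6 and 23 reads in the 22RV1 vector pair. With 1 pair left out, the calls in edgeR were lost for WNT7B (adjusted p up to 0.0818), AXIN2 (up to 0.201) and NKD1 (up to 0.659), and held for DKK1 and RNF43. Total counts were lower with H2O2 than with PBS in all 4 pairs, and HMOX1 started from 3.49 and 6.20 CPM in the PBS libraries of 22RV1 but from 79.0 and 78.4 CPM in those of DU145. The part of either in these differences was not tested.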

How the results depend on the processing

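The labels give no replicate numbers, and the tests blocked on pairs of libraries matched for line, construct or treatment. Of the 10 genes, SFRP1 and NKD1 included, the count that passed was as follows under settings that moved it. For H2O2 over 4 pairs it was 1, against 2, with no filter or an additive fit without pair blocks, and 0 to 1 with 1 pair left out. For the difference of H2O2 between lines it was 3, against 5, in the additive fit, and 3 to 5 with 1 pair left out. Within 22RV1 it was 3 in the additive fit and 2 to 5 with 1 pair left out, and within DU145 it was 3 in DESeq2's Wald test and 2 to 5 with 1 pair left out, each against 5. For PAGE4 over 4 pairs it was 0 in the additive fit and 0 to 1 with 1 pair left out, against 1. For the PAGE4 difference between lines it was 1 with DESeq2 size factors or no filter and 0 to 1 with 1 pair left out, against 0. The line comparison stayed at 7 or 8 genes.

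Over all genes, leaving out 1 pair gave 2149 to 4029 calls for H2O2 over 4 pairs, 2224 to 4195 for its difference between lines (1955 in the additive fit), 3656 to 6177 within 22RV1 and 5233 to 9241 within DU145. The interaction of PAGE4 with H2O2 gave 1 call with no filter, 1 in DESeq2's Wald test and 0 to 34 with 1 pair left out. PAGE4 over 4 pairs gave 483 with no filter, 24 with a mean count of at least 50, 88 in the Wald test, 7 in the additive fit and 27 to 154 with 1 pair left out, against 54. Its difference between lines gave 806, 339 (Wald test), 5 (additive) and 321 to 1212, in the same order, against 514. A fold over 2 in single pairs was met by 2 PAGE4 and 5 H2O2 values, against 9 and 14 for 1.5. The cause of these shifts was not tested, beyond fewer samples where a pair was left out. Genes under about 10 reads, SFRP1 and NKD1 in 22RV1, are limited by depth.

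No change that passed a test turned in direction under any alternative, but 38 values that did not pass changed sign, 33 of them with 1 pair left out, and none of these passed after the change. For SFRP1 within 22RV1, with 1 to 3 reads, the log2 value was -0.0046 with DESeq2 size factors, -0.034 with no filter, -0.0076 in the Wald test and -0.018 in the additive fit, and ZNRF3 within 22RV1 was at 0.0010 with a mean count of at least 50. The genes whose value changed sign with 1 pair left out are given with their lowest and highest value. For H2O2 over 4 pairs they were NKD1 (-0.027 to 0.76), TCF7 (-0.41 to 0.013), DKK1 (-0.61 to 0.0027) and ZNRF3 (-0.022 to 0.063). For the difference of H2O2 between lines they were SFRP1 (-0.49 to 1.26) and LEF1 (-0.17 to 0.058). Within 22RV1 they were WNT5A (-0.24 to 0.73), TCF7 (-0.28 to 0.46) and SFRP1 (-1.02 to 0.72). Within DU145 they were WNT7B (-0.26 to 0.15) and NKD1 (-0.30 to 0.049). For the interaction of PAGE4 with H2O2 they were AXIN2 (-0.30 to 1.04), RNF43 (-0.53 to 0.83), ZNRF3 (-0.15 to 0.065), NKD1 (-1.90 to 0.85) and DKK1 (-0.94 to 0.93). For PAGE4 over 4 pairs this was RNF43 (-0.0032 to 0.18). For the PAGE4 difference between lines they were WNT7B (-0.43 to 0.17), TCF7 (-0.50 to 0.24), DKK1 (-0.084 to 0.25), WNT5A (-0.18 to 0.78), RNF43 (-0.25 to 0.17) and SFRP1 (-0.63 to 1.11). For the line comparison this was AXIN2 (-0.20 to 0.35).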

Other observations

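Several other WNT genes, singled out after their values were seen, also answered H2O2 differently in the 2 lines. LGR4, a receptor for R-spondins, was at 80.1, 25.6, 87.4 and 31.9 CPM in DU145 and at 19.1, 24.2, 12.1 and 15.1 CPM in 22RV1. It fell by 1.61 in DU145 (SE 0.11, adjusted p 8.83e-11 in edgeR) with 0.20 in 22RV1 (SE 0.12, adjusted p 0.233), and the lines differed by 1.82 (SE 0.16, adjusted p 2.04e-08). RNF43 RNA also fell by more in DU145. R-spondin and LGR4 remove RNF43 protein from the cell surface, which RNA counts do not measure, and a link between the 2 falls was not tested.

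The targets MYC and CCND1 went the other way from DKK1. MYC was at 189, 82.9, 191 and 130 CPM in 22RV1 and at 166, 251, 180 and 236 CPM in DU145, and CCND1 at 3078, 2247, 3382 and 3146 CPM in 22RV1 and at 338, 733, 397 and 647 CPM in DU145. MYC fell by 1.00 in 22RV1 and rose by 0.43 in DU145 (difference -1.43, SE 0.15, adjusted p 2.11e-07), and CCND1 fell by 0.41 in 22RV1 and rose by 0.84 in DU145 (difference -1.25, SE 0.11, adjusted p 2.40e-08). LGR5, a weak gene, had 176, 57, 195 and 83 reads in 22RV1 and 0, 22, 5 and 16 reads in DU145.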
